A study of Mus musculus with 18 samples.

Results

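Among the 42403 mouse genomic regions bound by the transcription factor GATA6 during induced differentiation, 756 were bound by GATA6 only transiently, gained a pluripotency transcription factor (PTF) that was not there before, and were never called as bound by SOX17. These 756 regions (called members here) were chosen by 3 measured classes of the deposited table: the time course of GATA6 binding (Transient), the peak calls of the PTFs OCT4, SOX2 and ESRRB (ectopic, meaning absent in untreated cells and present after induction), and the peak calls of SOX17 (not bound). Those classes are what the members are and not a finding about them. Of all regions 16285 were Transient and 7038 had ectopic PTF binding. These 3 classes come from ChIP-seq, which maps protein binding, and not from the MNase-seq series that carries the table. That series holds 18 MNase-seq libraries of the KH2 mouse embryonic stem (ES) cell line (C57BL/6 x 129/Sv), which carries a Gata6 cassette switched on by doxycycline (Dox). They form 6 groups of 3 replicates: untreated cells, and cells after 8, 16, 24, 48 or 96 h of 1 µg/mL Dox. All groups carry the cassette and were grown with serum and LIF on feeder fibroblasts, so the induced protein comes from a transgene in 1 cell line, with the clone not given in the labels, and not from an embryo. The columns used here describe regions and hold no value of a library, so depth is unknown and no result below rests on replicates.

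GATA6 drives ES cells towards primitive endoderm, the extraembryonic layer that faces the blastocyst cavity, and it can bind its motif in closed chromatin. OCT4 and SOX2 sustain pluripotency and bind DNA together on a composite motif in which a SOX site lies next to an octamer site, the site read by the OCT4 POU domain. ESRRB is an orphan nuclear receptor of naive pluripotent cells. SOX17 is an endodermal SOX factor that GATA6 switches on, and it competes with SOX2 as a partner of OCT4. Ectopic PTF binding means that OCT4, SOX2 or ESRRB appear at sites where ES cells do not hold them.

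The members were set beside 3 sets of regions, each of which differs from them by 1 class. Transient regions without PTFs (8937) also lacked SOX17, Early ectopic regions (589) gained PTFs without SOX17 but kept GATA6 from early on, and SOX17-bound ectopic regions (533) were Transient with ectopic PTFs and SOX17. Shares carry 95% Wilson intervals, and differences between 2 shares, in percentage points, carry 95% Newcombe intervals. Both cover the counting of regions only, and neighbouring regions are not independent, so some differences are followed by a count of the chromosomes that show the same sign, among those with at least 10 regions of both sets.

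The DNA under the GATA6 summit, the base with the highest GATA6 signal, is shown first. The members held sites that OCT4 can read more often than Transient regions without PTFs. Against the other sets the difference depended on the site counted or the window. The 6 best matches to the OCT4:SOX2 matrix in member regions are given in the orientation of the matrix, SOX site first and octamer site second. Coordinates are those of mm10 (GRCm38), and the sequences were read from the RefSeq GRCm38.p6 genome. The capitals mark the 15 bases of the match.
chr15:73461386-73461400, plus strand: CTTTGTCATGCAGAT
chr8:24843098-24843112, plus strand: CATTCAAATGCAAAT
chr10:68256070-68256084, plus strand: CATTGTTATTCAAAT
chr19:12019310-12019324, plus strand: TTTTCTTATGCTAAT
chr17:49971259-49971273, minus strand: CTTTCTCATGCAGAC
chr1:194030727-194030741, minus strand: TTTTATCATGCAAAT
Their scores, log-odds match scores of the motif finder, were 20.33, 17.44, 17.26, 16.84, 16.82 and 16.44 in that order. The match centres lay 27, 35, 34, 7, 1 and 22 bp from the GATA6 summit. All 6 regions lay outside histone state promoter, 4 of them were closed in untreated ES cells, and the chr1 region was the only one of the 6 whose GATA6 binding was classed as decreased after Oct4 knockdown.

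An exact octamer word, ATGCAAAT or its reverse complement ATTTGCAT, lay within 100 bp of the summit in 69 members. The word was chosen after the matrix results were known. Of the 8 such members with the word closest to the summit, the 6 with a summit outside promoters are shown with 61 bp of the plus strand centred on the summit. The capitals mark the octamer.
chr4:98927001-98927061: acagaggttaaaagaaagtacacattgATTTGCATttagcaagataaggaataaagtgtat
chr4:124462388-124462448: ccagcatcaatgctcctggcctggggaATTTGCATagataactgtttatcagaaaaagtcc
chr4:46705398-46705458: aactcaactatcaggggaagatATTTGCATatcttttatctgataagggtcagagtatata
chr5:117749412-117749472: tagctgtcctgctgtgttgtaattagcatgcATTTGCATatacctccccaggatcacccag
chr1:156651973-156652033: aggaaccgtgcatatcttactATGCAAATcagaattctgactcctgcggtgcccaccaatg
chr2:128424689-128424749: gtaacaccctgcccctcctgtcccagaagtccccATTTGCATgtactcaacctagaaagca
The nearest protein-coding genes were Usp1, 3100002H09Rik, Gabbr2, Nos1, Tor3a and Spdye4c in that order. Their transcript starts lay 1066, 148385, 18963, 31590, 22311 and 166490 bp from the summit. Of the 6 summits 5 lay in introns, which need not be those of the gene named (the Tor3a one lay between genes). A GATA6 match was found within 100 bp of the summit in the first 3 and in the last, with scores of 12.77, 12.04, 10.11 and 11.44. The regions near Nos1 and Tor3a had none. The Gabbr2 region was the only one of the 6 classed as decreased after Oct4 knockdown.

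The 5 members with the highest sum of a GATA6 and an OCT4:SOX2 score near the summit are shown to let the 2 sites be seen in 1 stretch. Each line is the plus strand from 100 bp before to 100 bp after the summit, and both matches are in capitals.
chr15:73461320-73461520: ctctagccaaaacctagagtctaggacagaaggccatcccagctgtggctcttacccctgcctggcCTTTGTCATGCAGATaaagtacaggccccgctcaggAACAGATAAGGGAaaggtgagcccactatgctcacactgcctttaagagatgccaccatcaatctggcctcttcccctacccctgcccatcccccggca
chr14:71916636-71916836: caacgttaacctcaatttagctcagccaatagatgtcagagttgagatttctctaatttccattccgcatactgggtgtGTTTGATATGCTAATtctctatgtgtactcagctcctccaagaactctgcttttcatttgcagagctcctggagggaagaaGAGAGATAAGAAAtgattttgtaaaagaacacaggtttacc
chr9:79755222-79755422: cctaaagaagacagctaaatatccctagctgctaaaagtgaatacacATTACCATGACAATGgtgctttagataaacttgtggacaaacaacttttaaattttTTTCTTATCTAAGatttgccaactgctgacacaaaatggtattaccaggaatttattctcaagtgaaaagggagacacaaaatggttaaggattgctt
chr3:75229325-75229525: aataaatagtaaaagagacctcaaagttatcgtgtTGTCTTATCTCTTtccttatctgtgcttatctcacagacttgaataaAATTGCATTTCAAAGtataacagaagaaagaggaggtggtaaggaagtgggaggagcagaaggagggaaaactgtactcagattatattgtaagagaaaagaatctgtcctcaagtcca
chr15:95953238-95953438: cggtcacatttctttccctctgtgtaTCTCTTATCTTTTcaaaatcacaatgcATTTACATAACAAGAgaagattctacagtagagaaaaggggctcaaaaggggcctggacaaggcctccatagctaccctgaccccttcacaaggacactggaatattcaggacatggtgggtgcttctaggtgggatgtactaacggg
In the first line the OCT4:SOX2 match (score 20.33) took positions 67 to 81 and the GATA6 match (13.59) positions 103 to 115, both on the plus strand. In the chr14 line the OCT4:SOX2 match (14.82) took positions 80 to 94 and the GATA6 match (15.14) positions 161 to 173. In the chr9 line the order was the same, with OCT4:SOX2 (16.10) at 48 to 62 and GATA6 (13.59) at 104 to 116, both on the minus strand. In the chr3 and the second chr15 line the GATA6 match came first, at 36 to 48 (14.44) and 27 to 39 (14.49). The nearest protein-coding genes were Ptk2, Gm9195, Cox7a2, Serpini2 and Ano6, with a transcript start 38140, 575102, 4556, 40653 and 152616 bp from the summit. All 5 regions were classed as unchanged after Oct4 knockdown, and 4 of the 5 were closed in untreated cells.

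The first question was what chromatin GATA6 met at the members in untreated ES cells. Accessibility was classed by the authors from ATAC-seq, and 422 members were closed (55.8%, 52.3 to 59.3), 279 moderate (36.9%) and 55 accessible (7.28%, 5.63 to 9.35). The closed share differed little from the 56.1% of Transient regions without PTFs (difference -0.295 points, -4 to 3.36). Early ectopic regions were closed more often, at 77.2%, and the members fell short of them by 21.4 points (difference -21.4, -26.2 to -16.4), on 18 of 20 chromosomes. Fully accessible regions were more frequent among members than in Transient regions without PTFs (2.62 points, 0.915 to 4.74) and less frequent than in SOX17-bound ectopic regions (-5.48 points, -8.99 to -2.18). Over all regions 61.3% were closed, 31.2% moderate and 7.43% accessible, so the accessible share of the members was near that of the whole table.

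Histone states, from a clustering of public ES cell histone marks by the authors, were spread over all 7 classes. Poised enhancers made up 19.3% of the members (146), facultative heterochromatin 18.9% (143), the naive state 15.3% (116), primed enhancers 13.5% (102), promoters 11.5% (87), constitutive heterochromatin 11.1% (84) and active enhancers 10.3% (78). The names are those of the table, and the naive state is used here as a label only. Over all regions the 7 shares, in the order given above, were 14.6%, 22.3%, 18%, 16.9%, 6.88%, 10.2% and 11.2%. Against Early ectopic regions the members had fewer naive regions (15.3% against 34.6%, difference -19.3 points, -23.9 to -14.7) and more poised enhancers (19.3% against 8.66%, 10.7 points, 6.97 to 14.2). Active enhancers were also more frequent in members than in Early ectopic regions (10.3% against 3.9%, 6.41 points, 3.68 to 9.11). Against Transient regions without PTFs the naive state was 3.57 points more frequent (1.08 to 6.39), promoters 3.68 points more frequent (1.51 to 6.21) and poised enhancers less frequent (difference -4.31 points, -7.11 to -1.22). With promoter summits left out the promoter-state difference was 0.554 points (-0.708 to 2.34) and that of poised enhancers -3.38 points (-6.43 to 0.00205). Width moved with these sets, with median region widths of 517 bp in members, 446 bp in Transient regions without PTFs, 638 bp in Early ectopic and 558 bp in SOX17-bound ectopic regions. Compared within 5 bins of the members' width, the difference in the naive state against Transient regions without PTFs was 2.6 points, with an interval that reached 0 (-0.0605 to 5.25).

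**Figure D1:**
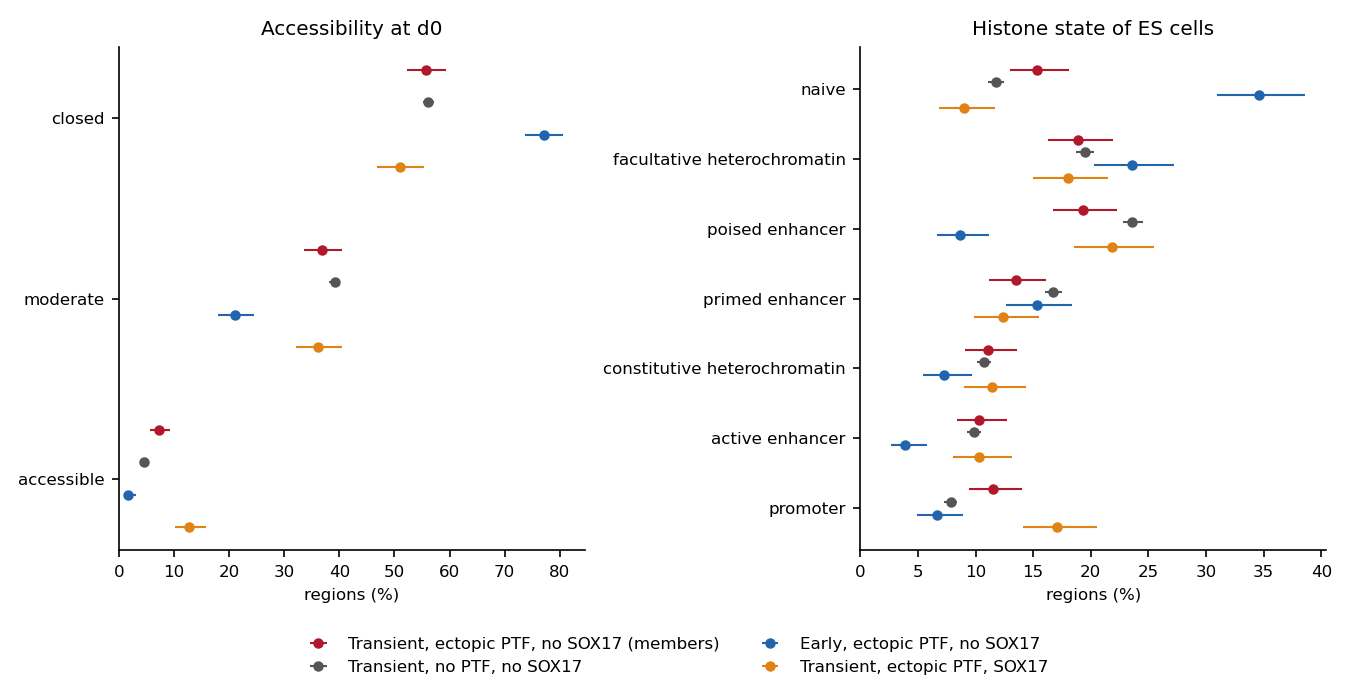
Share of regions (%, horizontal axis) in each accessibility class at d0 (left) and histone state (right) for the 756 members and the 3 comparison sets, with points for the share and bars for its 95% Wilson interval. The members sat beside the other Transient sets, at 55.8% closed, while Early ectopic regions stood at 77.2% closed and 34.6% naive.

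By position, 309 member summits lay between genes (40.9%), 300 in introns (39.7%), 120 within 1 kb of a transcript start (15.9%) and 27 in exons (3.57%). Over all regions these shares, in the same order, were 38.5%, 46%, 12.4% and 3.11%. Accessible members were mostly promoters: 43 of the 55 were in the promoter state (78.2%, 65.6 to 87.1), against 44 of the 279 moderate ones (15.8%). This split is not given here for other regions, so it is not shown to be particular to the members. Introns held fewer members than Transient regions without PTFs (39.7% against 44.2%, difference -4.55 points, -8.13 to -0.872). The promoter share exceeded that of Early ectopic regions (11.9%) by 3.99 points (0.232 to 7.64), and by 3.09 points with protein-coding transcripts only (-0.137 to 6.22). It exceeded that of Transient regions without PTFs (13.4%) by 2.48 points, with an interval that included 0 (-0.0571 to 5.34), and by 3.05 points with protein-coding transcripts only (0.912 to 5.56) or 2.66 points for promoters within 500 bp (0.502 to 5.18). The members were spread over the genome, from 17 on chromosome 19 to 68 on chromosome 2. The median distance to the next GATA6 summit was 10236 bp, and 135 members (17.9%, 15.3 to 20.7) had one within 2 kb, near the 16.8% of all regions. The nearest GATA6 region was SOX17-bound for 302 members (39.9%), against 37.6% for Transient regions without PTFs and 45.6% over all regions.

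Sequence was not used to choose the members, but binding of OCT4, SOX2, ESRRB and SOX17 was. Differences between the sets in the motifs of these factors may therefore follow from the choice itself. They are given as a description and not as independent evidence of binding. Windows reaching 100 bp to either side of the summit were scanned with the 4 matrices recovered from the deposited motif scores, and control windows lay 3 kb to either side. A GATA6 match was present in 564 members (74.6%, 71.4 to 77.6), against 34% of control windows and 77.1% of all regions. This was lower than in Transient regions without PTFs (84%, difference -9.36 points, -12.7 to -6.29) and in Early ectopic regions (90.2%, -15.5 points, -19.4 to -11.6). It was higher than in SOX17-bound ectopic regions (61.7%, 12.9 points, 7.72 to 18). The exact word AGATAA, the core of the GATA site, gave the same order, with 51.5% of members, 61.9% of Transient regions without PTFs, 73.3% of Early ectopic and 37.5% of SOX17-bound ectopic regions. It was found in 54.3% of all regions.

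OCT4:SOX2 matches were found in 373 members (49.3%, 45.8 to 52.9), against 36.1% of their control windows, a difference of 13.2 points (8.86 to 17.5). Over all regions the share was 41.8%. Transient regions without PTFs had matches in 41.9%, 7.41 points below the members (3.72 to 11.1), and SOX17-bound ectopic regions in 28.5%, 20.8 points below (15.5 to 25.9). Early ectopic regions had 43.3%, and here the difference of 6.04 points (0.672 to 11.4) turned to -0.985 points (-6.08 to 4.16) when the window reached further from the summit, and to -7 points (-11.3 to -2.57) when motifs anywhere in the region were counted. The deposited whole-region matches were present in 75% of members and 82% of Early ectopic regions, which are wider. Strong OCT4:SOX2 matches, with a deposited score above 12, were found in 87 members (11.5%, 9.43 to 14), against 8.29% of Transient regions without PTFs (3.22 points, 1.05 to 5.75) and 4.5% of SOX17-bound ectopic regions (7.01 points, 4.04 to 9.88). Early ectopic regions had them in 8.32%, with an interval of the difference that included 0 (3.19 points, -0.0725 to 6.35), and all regions in 9.9%.

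SOX17 and ESRRB matches did not stand above their surroundings in the members. SOX17 matches were present in 29.8% of summit windows and 30.7% of control windows (difference -0.921 points, -4.9 to 3.16). SOX17-bound ectopic regions had them in 44.5% of summits and all regions in 43.1%. The CATTGT word, the SOX side of the composite site, was in 10.2% of members, 12.7% of control windows, 27.6% of SOX17-bound ectopic and 23% of all regions. ESRRB matches were in 14.2% of members and 11.6% of control windows (2.51 points, -0.394 to 5.6), against 17.7% of Transient regions without PTFs and 14.9% of all regions.

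**Figure D2:**
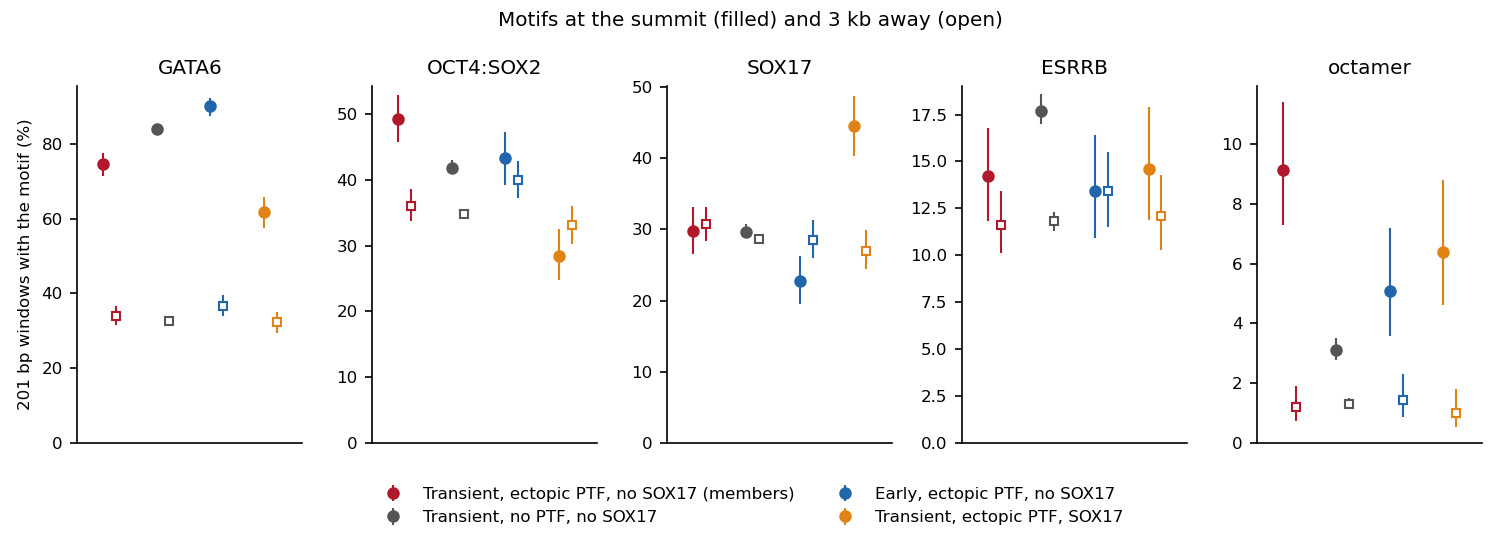
Share of windows (summit ± 100 bp) with a match (%, vertical axes, each with its own scale from 0) for 4 matrices and the exact octamer, in the members and the 3 comparison sets. Filled circles are summit windows, open squares are control windows 3 kb away, and bars are 95% Wilson intervals; in the members OCT4:SOX2 stood at 49.3% against 36.1% in control windows, and the octamer at 9.13% against 1.19%.

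The exact octamer was more frequent in the members than in either set without SOX17. It lay in 9.13% of member windows (69 of 756, 7.28 to 11.4), against 1.19% of their control windows (17 of 1434) and 3% of all regions. In Transient regions without PTFs it lay in 3.12%, 6.01 points fewer (4.11 to 8.3), with the same direction on 18 of 20 chromosomes. Early ectopic regions had it in 5.09%, 4.03 points fewer (1.25 to 6.75). Within the 5 width bins this second difference was 2.51 points, with an interval that included 0 (-0.694 to 5.72). SOX17-bound ectopic regions had it in 6.38%, and the difference of 2.75 points had an interval that included 0 (-0.285 to 5.63), while with summits in soft-masked repeats left out it was 3.99 points (0.832 to 7.03).

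All 8 bases of the octamer lay inside an OCT4:SOX2 match in 39 of the 69 members (56.5%), and in 55.9% of the Transient regions without PTFs that held it. Its median distance from the summit was 29.5 bp, and 29 of the 69 lay within 25 bp (42%, 31.1 to 53.8). A GATA6 match accompanied it in 52 of the 69 (75.4%), near the 74.6% of all members. Among members without a GATA6 match in the window the octamer was found in 17 of 192 (8.85%, 5.6 to 13.7), against 1.67% of such Transient regions without PTFs (24 of 1433, 1.13 to 2.48). Such regions of the other sets lay nearer to the members, at 8.62% of Early ectopic (5 of 58) and 6.37% of SOX17-bound ectopic regions (13 of 204), and at 3.88% over all regions. Closed members held it in 11.6% (49 of 422) and moderate members in 5.73% (16 of 279), a difference of 5.88 points (1.54 to 9.92). The comparison sets had the same order, so it was not particular to the members. Closed and moderate shares were 4.13% and 1.91% in Transient regions without PTFs and 6.15% and 1.61% in Early ectopic regions. They were 9.56% and 3.11% in SOX17-bound ectopic regions, while all regions had the opposite order, 2.55% and 3.48%. Among members in constitutive heterochromatin the octamer reached 20.2% (17 of 84, 13 to 30), 12.5 points above members in the other states (4.95 to 22.5). This state was singled out after its value was seen. Of the 69 octamers 16 lay in soft-masked repeats, and with all summits in such repeats left out the difference from Transient regions without PTFs was 6.48 points (4.41 to 9.02).

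**Figure D3:**
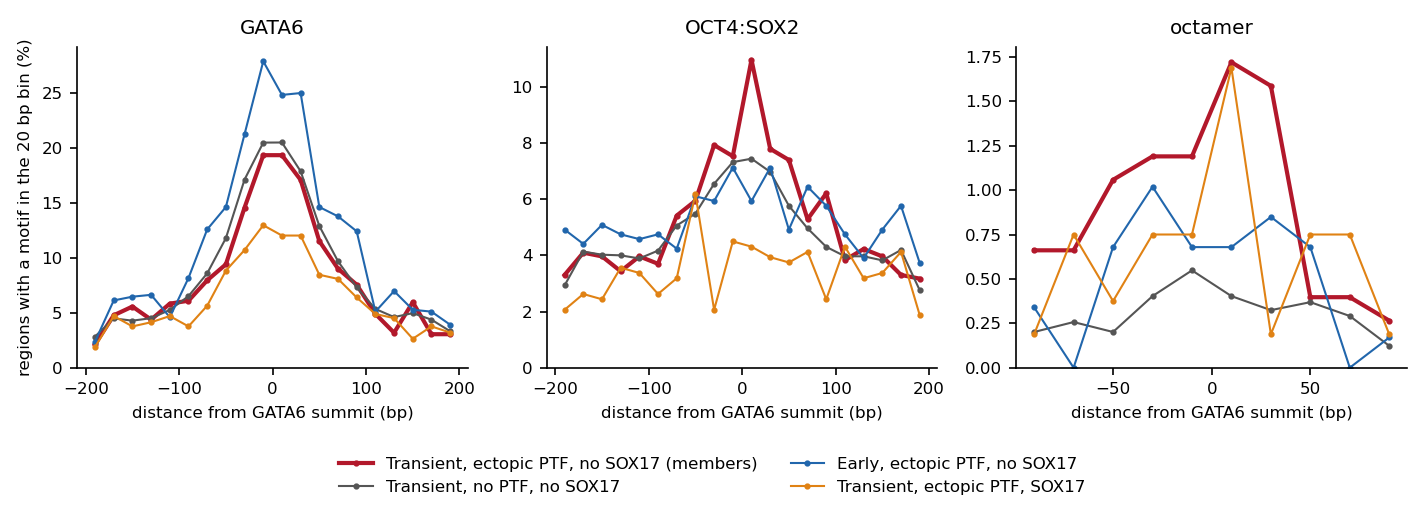
Share of regions with a match centred in each 20 bp bin (%, vertical axes, each with its own scale) by distance from the GATA6 summit (bp) for GATA6, OCT4:SOX2 and the exact octamer. In the members (thick line) the OCT4:SOX2 share was highest in the bin centred at 10 bp, at 10.98%, and lay at 3.17% to 4.23% beyond 100 bp.

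Matches crowded around the summit. The best GATA6 match of a member was centred within 50 bp of the summit in 49.8% of those that had one (331 of 665, 46 to 53.6), where even placement over each region would give 20.3%. This GATA6 share was 59% in Transient regions without PTFs, 55.4% in Early ectopic, 41.5% in SOX17-bound ectopic and 50% in all regions. For OCT4:SOX2 the share in members was 36% (204 of 567, 32.1 to 40), against 22.6% in Early ectopic (19.1 to 26.5) and 18.6% in SOX17-bound ectopic regions (14.8 to 23). For Transient regions without PTFs it was 32.2% (31 to 33.4), with 22.4% for even placement there. The best SOX17 match was within 50 bp in 21.1% of members and the best ESRRB match in 19%, near the 18.8% and 18.5% of even placement.

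GATA6 and OCT4:SOX2 matches met in the same window in 293 members (38.8%, 35.3 to 42.3), against 13.8% of control windows and 31.9% of all regions. Transient regions without PTFs had both in 35.5% and Early ectopic regions in 39.2%, and neither differed from the members beyond its interval. SOX17-bound ectopic regions had both in 19.7%, 19.1 points fewer (14.1 to 23.8). A window with an OCT4:SOX2 match and no GATA6 match was found in 80 members (10.6%), against 6.47% of Transient regions without PTFs (4.11 points, 2.05 to 6.56) and 4.07% of Early ectopic regions (6.51 points, 3.74 to 9.24). The member share was near the 9.95% of all regions. SOX17-bound ectopic regions had 8.82%, and the interval of that difference included 0 (1.76 points, -1.6 to 4.96). Where both were present, the best matches were separated by a gap under 20 bp in 25.3% of members (20.6 to 30.5) and 13.1% of control windows (9.12 to 18.5), but Transient regions without PTFs had the same share, 25.4%. Overlapping matches made up 14% in members and 16.2% in control windows. The most frequent single arrangement, centres 1 bp apart on the same strand, held 10 of the 293 members.

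The mean best GATA6 score was 10.34 in members, and the difference was -0.59 from Transient regions without PTFs (SE 0.097) and -1.01 from Early ectopic regions (SE 0.14). It was 0.65 above SOX17-bound ectopic regions (SE 0.15). For the best OCT4:SOX2 score the members lay 0.33 above the mean of 8.67 in Transient regions without PTFs (SE 0.12), 0.48 above the 8.52 of Early ectopic (SE 0.16) and 0.96 above the 8.03 of SOX17-bound ectopic regions (SE 0.17). These means cover only regions with a match, and n was 665 members for GATA6 and 567 for OCT4:SOX2.

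Among the members, motif content went with accessibility. The authors report denser and better GATA6 motifs at less accessible Transient sites in general. The same split is not given here for the comparison sets, so it is not shown to be particular to the members. GATA6 matches were in 83.4% of closed, 70.3% of moderate and 29.1% of accessible members. OCT4:SOX2 matches were in 57.1% (241 of 422), 42.3% (118 of 279) and 25.5% (14 of 55). Closed members exceeded moderate ones by 13.2 points for GATA6 (6.81 to 19.6) and by 14.8 points for OCT4:SOX2 (7.26 to 22.1). Both matches were in the window of 50% of closed members and 9.09% of accessible ones, where 54.5% had neither. By histone state, OCT4:SOX2 matches were most frequent in naive (62.9%) and facultative heterochromatin members (62.2%), and least in promoters (28.7%) and active enhancers (38.5%). The naive state exceeded active enhancers by 24.5 points (10.1 to 37.4). CpG content moved with the classes: accessible members had a mean of 12.1 CpG in the window (SD 7.75) and closed members 1.67 (SD 1.67), and its part in these differences was not tested.

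**Figure D4:**
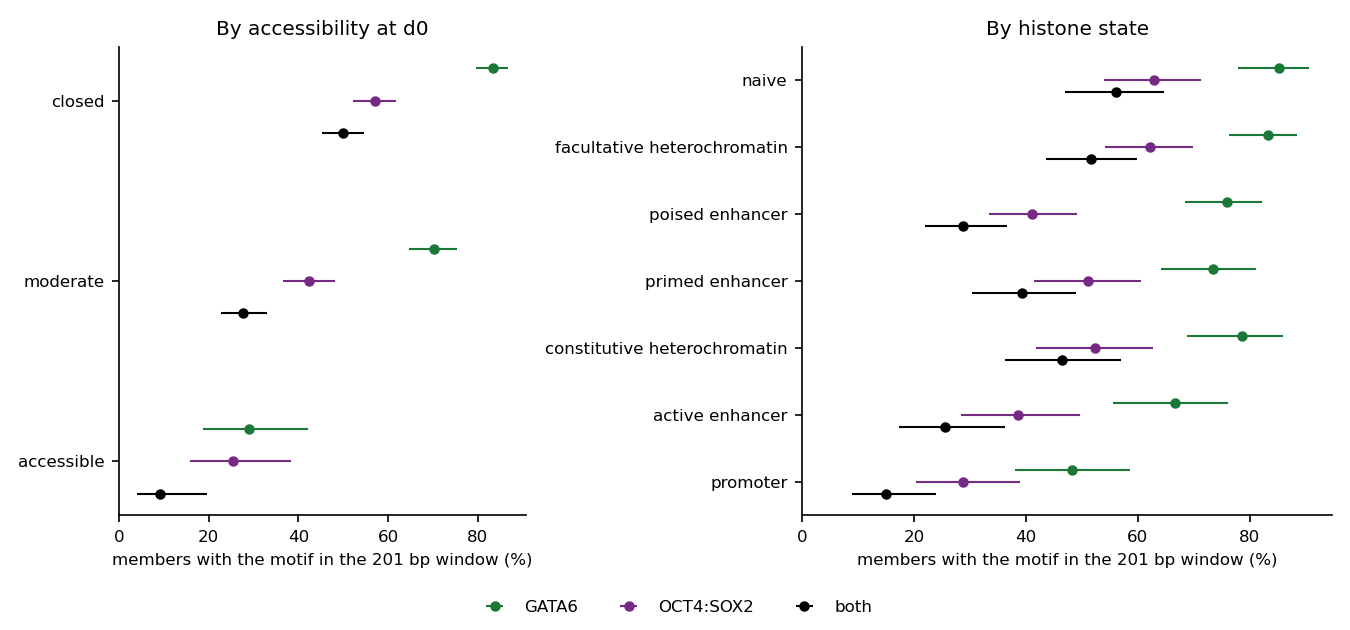
Share of the 756 members with a GATA6 match, an OCT4:SOX2 match or both in the summit window (%, horizontal axes) by accessibility class (left) and histone state (right), with 95% Wilson intervals as bars. Both matches together were found in 50% of closed and 9.09% of accessible members.

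The next question was whether GATA6 binding at the members depended on OCT4. GATA6 binding 48 h after induction was compared by the authors between Oct4 and control siRNA, in libraries other than those that defined the members, and each region was classed as decreased, increased or unchanged. Of the members 140 were decreased (18.5%, 15.9 to 21.4), against 6.25% of all regions, and 1 was increased (0.132%), against 8.57% of all regions. Increased regions were also rare in the comparison sets, at 0.123% of Transient regions without PTFs, 0.509% of Early ectopic and 0.375% of SOX17-bound ectopic regions. Transient regions without PTFs were decreased in 3.58% (320 of 8937), 14.9 points below the members (12.3 to 17.9), on 20 of 20 chromosomes. SOX17-bound ectopic regions stood at 22.1% (difference -3.62 points, -8.16 to 0.804). Early ectopic regions stood at 23.6%, and the difference of -5.08 points (-9.52 to -0.707) became -2.81 points within the 5 width bins (-7.16 to 1.54).

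Decreased members were more often closed and wider. Closed members were decreased in 23.5% (99 of 422), moderate ones in 14% (39 of 279) and accessible ones in 3.64% (2 of 55), and closed exceeded moderate by 9.48 points (3.55 to 15.1). Over all regions the shares were 6.21%, 6.63% and 5.01%, so the share in accessible members was not above that of all accessible regions. By histone state the share ran from 28.4% in the naive state (33 of 116) and 23.1% in facultative heterochromatin (33 of 143) to 11.9% in constitutive heterochromatin (10 of 84) and 2.3% in promoters (2 of 87). All regions in these states were decreased in 7.64%, 5.86%, 5.58% and 2.84%. Members of 600 bp and wider were decreased in 27.5% and those narrower than 400 bp in 9.23%, 18.3 points apart (11.2 to 24.9). The same trend was seen over all regions (10.6% and 1.88%), in Early ectopic regions (26.4% and 11.8%) and in SOX17-bound ectopic regions (25.6% and 6.67%). Within the 5 width bins the difference between members and Transient regions without PTFs was 14.5 points (11.7 to 17.2).

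The response also went with the motifs. Members with an OCT4:SOX2 match at the summit were decreased in 21.7% (81 of 373) and those without in 15.4% (59 of 383), a difference of 6.31 points (0.766 to 11.8). All regions had the same order, with 7.5% and 5.36%. The opposite order was seen in Transient regions without PTFs, 2.72% with a match and 4.2% without (difference -1.48 points, -2.23 to -0.71). Early ectopic regions gave 3.33 points (-3.54 to 10.4) and SOX17-bound ectopic regions -5.2 points (-12.2 to 2.78). Members with both matches were decreased in 22.9% (67 of 293) and members with neither in 9.82% (11 of 112), 13 points apart (4.83 to 19.7). Over all regions these shares were 7.77% and 5.59%. The same contrast was -0.561 points in Transient regions without PTFs (-2.07 to 0.618), 9.19 in Early ectopic (-7.54 to 20.3) and 0.261 in SOX17-bound ectopic regions (-8.89 to 10.2). Among closed members alone the difference by OCT4:SOX2 match was 8.19 points, with an interval that touched 0 (-0.00137 to 16). The exact octamer did not separate the classes: 11 of 140 decreased (7.86%) and 58 of 615 unchanged members (9.43%) held it (difference -1.57 points, -5.85 to 4.46).

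**Figure D5:**
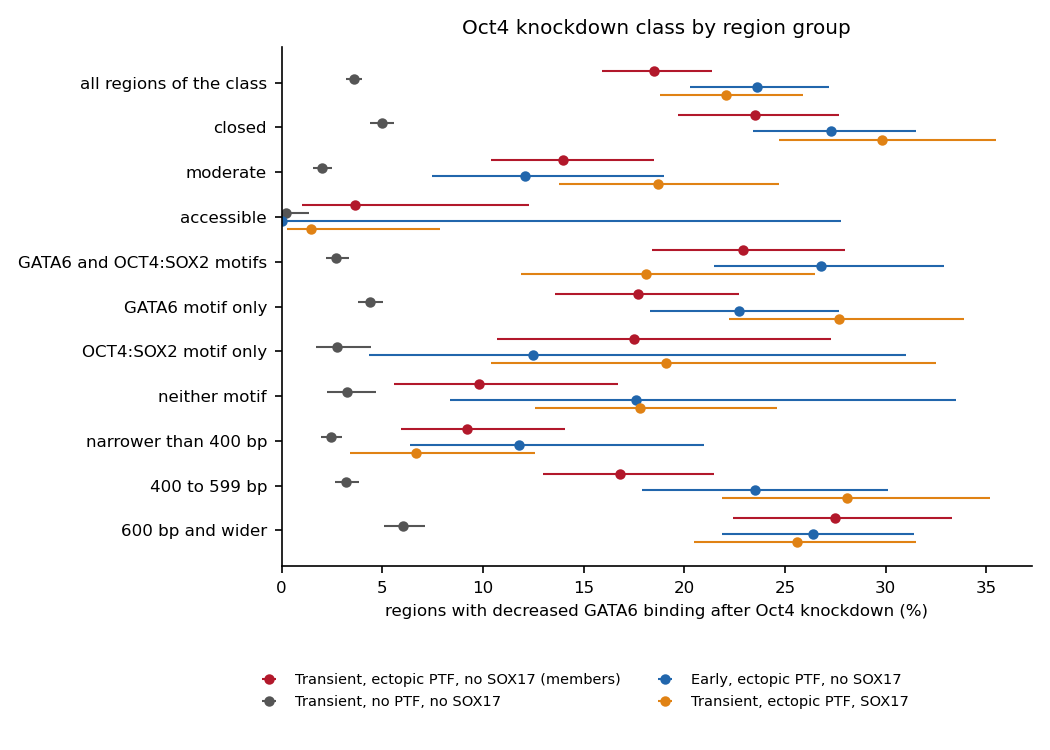
Share of regions whose GATA6 binding was classed as decreased after Oct4 knockdown (%, horizontal axis) by accessibility, motif content of the summit window and region width, for the members and the 3 comparison sets, with 95% Wilson intervals as bars. The members lay at 18.5% overall and at 9.23% to 27.5% across widths, above Transient regions without PTFs in every group drawn, although the intervals overlap for accessible regions.

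The decreased members with the highest GATA6 scores show how varied these regions were. The first, chr12:79971098-79972359, between genes and 141208 bp from a transcript start of Zfp36l1, had the highest GATA6 score of all members (15.21) and 4 GATA6 matches but no OCT4:SOX2 match. The best GATA6 match, GGGAGATAAGAAA on the minus strand at chr12:79971760-79971772, is shown because it tops the list. A promoter region of the sorting nexin gene Snx1 (chr9:66125390-66126846) held 8 GATA6 matches, the best at 15.06, and again no OCT4:SOX2 match. The region at chr2:50534692-50535644, 238445 bp from Mmadhc, was closed and had 4 GATA6 matches (best 14.95) and 2 OCT4:SOX2 matches. The remaining 2 of the 5 had Slc22a20 (score 14.62) and Cbln4 (14.61) as nearest protein-coding genes, 2048 and 172424 bp away. So 3 of the 5 had no OCT4:SOX2 match anywhere in the region. The highest SOX17 score (12.83) and the highest ESRRB score (18.12) were each reached in closed and in moderate members. The members named by the rule for ties lay at chr13:51095171-51095757, 5441 bp from Spin1, for SOX17, and at chr2:100284460-100284742, in closed facultative heterochromatin, for ESRRB.

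Genes of the 2 cell states were examined by distance, which does not say that a region regulates them. Of 40 pluripotency genes 10 had a member within 100 kb of a transcript start, and the same number within 50 kb. Of 40 primitive endoderm genes 5 had one within 100 kb and 3 within 50 kb. Per 1000 regions there were 15.9 pairs of a member and a pluripotency gene, 11.7 for Transient regions without PTFs, 8.49 for Early ectopic and 26.3 for SOX17-bound ectopic regions. For primitive endoderm genes the values were 6.61, 7.05, 6.79 and 18.8. Pairs are few, and no list was tested.

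The pluripotency genes with the nearest members were Id3, an inhibitor of helix-loop-helix factors, and the Krüppel-like factors Klf4 and Klf5. The Id3 summit lay 175 bp from a transcript start in moderately accessible promoter chromatin. The Klf4 region, chr4:55529044-55529617, had its summit in an intron 2369 bp from a start and held 3 OCT4:SOX2 matches. The best, CTTTGCAATGCAAAA on the minus strand at chr4:55529424-55529438, scored 12.79 and is shown because it lay near the summit, while the best GATA6 score there was only 7.57. Klf5 had 3 members within 100 kb, the nearest at 2594 bp in an exon, with no GATA6 and no OCT4:SOX2 match. An intronic region of Esrrb (chr12:86403766-86404309, 17534 bp from a start) was closed, in the poised enhancer state and decreased after Oct4 knockdown. An intronic region of Eps15l1, 35132 bp from the start of Klf2, was an active enhancer and also decreased. The others were near Tet1, Jarid2, Tet2, Utf1 and Dnmt3b and were unchanged.

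Of the primitive endoderm genes with a member within 100 kb, 4 are described here, namely Runx1, Fgfr2, Sox17 and Ttr. The Runx1 member lay 83 bp from a transcript start in accessible promoter chromatin and had no GATA6 match. The member in an intron of Fgfr2, an FGF receptor, lay 8204 bp from a start and held 4 GATA6 and 3 OCT4:SOX2 matches. The members nearest to Sox17 and Ttr lay 97065 and 97084 bp away. None of these 4 members was classed as decreased. By nearest protein-coding gene the members were scattered, and the genes with the most were Hs6st1 with 4 and Adgrl2, Klf5, Nucks1 and Plxna2 with 3 each.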

How the data were processed

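The submitters' processing notes name bcl2fastq, cutadapt, Bowtie2, SAMtools and the build mm10. GATA6, SOX17 and PTF peaks were called by the authors from ChIP-seq with MACS2 on merged replicates and kept when called in each replicate. The deposited table of 42403 regions has 105 columns, of which 34 were used. Apart from motif scores and counts, the columns used hold regions, summits, motif positions and classes that the authors gave as words or positions (the kind of value named other). The classes come from k-means of GATA6 signal, from peak calls, from ATAC-seq, from histone marks and from the Oct4 knockdown. The deposited motif score is the match score of the FIMO motif finder, and the number of matches per region stands beside it. A further 59 columns of signal, none of which matches a library described here, and 12 columns that group motif values were not used. MNase-seq values were not analysed here, so depth per sample is unknown.

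The 4 scoring matrices were recovered by least squares from the deposited best motifs (largest residual 5.2e-05), and bases never seen at a position were barred. Rescanning all 756 members, including matches that straddle a region's edge, returned the deposited presence and best score for 100% of them, within 0.001. A match had to reach the lowest deposited best score, 6.23 for GATA6, 5.13 for OCT4:SOX2, 7.18 for SOX17 and 5.0 for ESRRB. Summit windows reached 100 bp to either side, and control windows 3 kb away that overlapped a GATA6 region were dropped. Motif positions count from 1. The base at which region starts and summits count is not given in the sources used here, so these are printed as deposited. Summits were annotated with GENCODE M21, with promoter meaning within 1 kb of a transcript start. The scan and the intervals were tested on simulated data. Scripts ran in Python 3.11.15 with scipy 1.17.1, pysam 0.24.0, matplotlib 3.10.9, pandas 2.3.3 and numpy 2.4.6.

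The named regions were, for each motif, the member with the highest score; the 5 with the highest sum of GATA6 and OCT4:SOX2 scores near the summit; the 5 decreased after Oct4 knockdown with the highest GATA6 score; and the member nearest to each listed gene within 100 kb, with ties by chromosome and start. The members, lists and comparisons were chosen with earlier results of these data known. Alternatives were other windows, thresholds, 5 width bins, promoter definitions and gene distances. The values of 1 listed gene are not reported here.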

Additional observations from a re-analysis of the deposited data

How the results depend on the processing

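Of 151 alternatives tried over 41 results, 126 kept the direction and the side of 0 on which the interval lay. OCT4:SOX2 matches against Early ectopic regions turned to -0.985 points in a wider window around the summit and to -7 points over the whole region, and over the whole region SOX17 matches turned to -4.45 and ESRRB matches to -5.21 against the same set. The following lost an interval clear of 0. The naive state against Transient regions without PTFs came to 2.6 points within the 5 width bins. Promoter state came to 0.554 against them and -2.2 against SOX17-bound ectopic regions without promoter summits. The decreased share against Early ectopic regions came to -2.81 within width bins, -4.03 without promoter summits, -3.79 in closed regions and -3.77 in regions with an OCT4:SOX2 match. The octamer against Early ectopic regions came to 2.51 within width bins, and promoter position to 3.09 with protein-coding transcripts only. Poised enhancers against Transient regions without PTFs came to -3.38 without promoter summits, SOX17 matches against Early ectopic regions to 3.1 in the wider window and 2.32 at a stricter score, and ESRRB matches against Transient regions without PTFs to -2 over the whole region and -2.35 in closed regions. The following gained one. With moderate counted as closed, the closed share differed by -2.62 points from Transient regions without PTFs and by 5.48 from SOX17-bound ectopic regions. Promoter position against Transient regions without PTFs came to 2.66 within 500 bp and to 3.05 with protein-coding transcripts only, and the octamer against SOX17-bound ectopic regions to 3.99 outside repeats. ESRRB matches against SOX17-bound ectopic regions came to -5.32 over the whole region. Within 50 kb, 3 primitive endoderm genes had a member. The causes were not tested. The octamer results, and the decreased share in closed regions or regions with a match, were added after seeing the data. No paired analysis was possible because no value of a library, and so no replicate number, entered any result. Depth is unknown, intervals cover the counting of regions only, and the classes rest on the authors' thresholds, which were not varied.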

Other observations

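A repeated sequence stood out among the OCT4:SOX2 matches. The 15 bases CTTTATTTTACAAAT were the best OCT4:SOX2 match of 6 members and of 136 regions of the whole table, and in all 136 they lay in soft-masked repeat sequence. Transient regions without PTFs held 49 of them (0.548% of that set) and Early ectopic regions 1 (0.17%), against 0.794% of members and 0.321% of all regions. None of the 6 members was classed as decreased after Oct4 knockdown, and 4 of the 6 were closed. No other best OCT4:SOX2 match was shared by more than 2 members.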
